A study of Homo sapiens with 6 samples.

Results

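The transcripts described here are 155 of the 37879 targets measured on 6 microarrays, and 155 of the 8471 targets that carried a gene symbol and were detected on the 3 arrays in question. They were chosen by their signals: on the arrays labelled control IP 2, Stau1 IP 1 and Stau1 IP 3, called the high arrays below, the lowest signal was at least 2 times the highest signal on the arrays labelled control IP 1, control IP 3 and Stau1 IP 2, called the low arrays. Detection on each high array was also required, at a detection p under 0.01. Of the detected symbols 166 met the fold, which is 1.96% of them; 7 zinc finger genes named ZNF and 4 other named genes were then left out. Since these values chose the members, their height on the high arrays is a description and has no test.

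The arrays came from HEK293T cells, a human embryonic kidney line, transiently transfected with an empty vector (control IP, 3 arrays) or with a plasmid for Stau1-55-FLAG, a FLAG-tagged isoform of the protein (Stau1 IP, 3 arrays). The plasmid's name in the methods gives an RSV promoter, and the cells kept their own STAU1. All cultures were held in prometaphase by nocodazole, a drug that stops microtubules from forming, at 50 ng/ml over 15 h by the labels; the study's methods give a longer time. Each extract was immunoprecipitated with anti-FLAG antibody, and the RNA that came down was labelled and hybridised to Illumina HumanWG-6 v3 bead arrays, so the study asked which transcripts co-purify with the tagged protein. The labels number the arrays of each group 1 to 3 without saying that they came from separate cultures, so any p-value measures the spread between these arrays only.

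Staufen1 binds RNA duplexes and can alter the stability, translation and localisation of the transcripts it binds. In an immunoprecipitation of a tagged protein, the precipitate from cells with an empty vector shows what the beads and the antibody retain without it. A bead array reads each transcript as the mean brightness of the beads that carry its probe, and in a precipitate a larger bound share and more transcript in the cells give the same reading; input arrays were not analysed here. The members were thus high on 2 arrays labelled Stau1 IP and on 1 labelled control IP, an order that does not follow the labels. No symbol met the same fold and detection with the arrays grouped as labelled. Which precipitate each array held was taken from the labels and was not tested.

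The other detected symbols differed less between arrays than the members, but in the same direction. Detected targets were 9287, 9270 and 9655 on the high arrays and 8801, 8705 and 8114 on the low arrays. Median signals of the 8316 other detected symbols were 672, 623 and 676 on the high arrays and 532, 571 and 493 on the low arrays. Their median ratio of mean signals, high over low arrays, was 1.16, against 3.79 for the members. These other symbols were also required to be detected on the high arrays. STAU1 itself read 2499, 3246 and 2758 on control IP 1 to 3. On Stau1 IP 1 to 3 it read 2845, 1857 and 3130, so it did not separate the labelled groups. It was slightly higher on each high array than on any low array, the lowest over the highest being 1.03. Its detection was listed on 5 arrays. The signal of STAU1 in a precipitate is no check of the tagged protein. Mitosis genes that mark the arrest were measured well on every array, with CCNB1 at 1419 to 2576, AURKA at 4055 to 5597 and CDC20 at 11104 to 17202. Of the HEK293T genes, LIN28B, NEFL and NEFM were detected on all 6 arrays, CTNNB1 on 4 and PAX2 on none, and none of 6 markers of other cell types (ALB, CD3E, PTPRC, HBB, KRT5, DES) was detected on any array.

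The members ranged widely in height. Their ratio, meaning the lowest high array over the highest low array on the raw signal, had a median of 2.55 and ran from 2.00 to 7.47, with 71 members under 2.5, 52 at 3 or more and 24 at 4 or more. Median member signals were 306, 1141 and 364 on control IP 1, 2 and 3 and 1478, 297 and 1605 on Stau1 IP 1, 2 and 3. The array labelled control IP 2 was the lowest of the high arrays in 139 members, and its signal was a median 0.744 times the mean of Stau1 IP 1 and 3; over the other detected symbols this value was 1.06. Only 8 members (LPP, FOXK1, ZYG11B, PHCA, TNFAIP8L1, SAMD5, WNT3A and CFLAR) read higher on control IP 2 than on the mean of the other high arrays. Among the low arrays, control IP 3 was the highest in 100 members, control IP 1 in 29 and Stau1 IP 2 in 26.

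**Figure D1:**
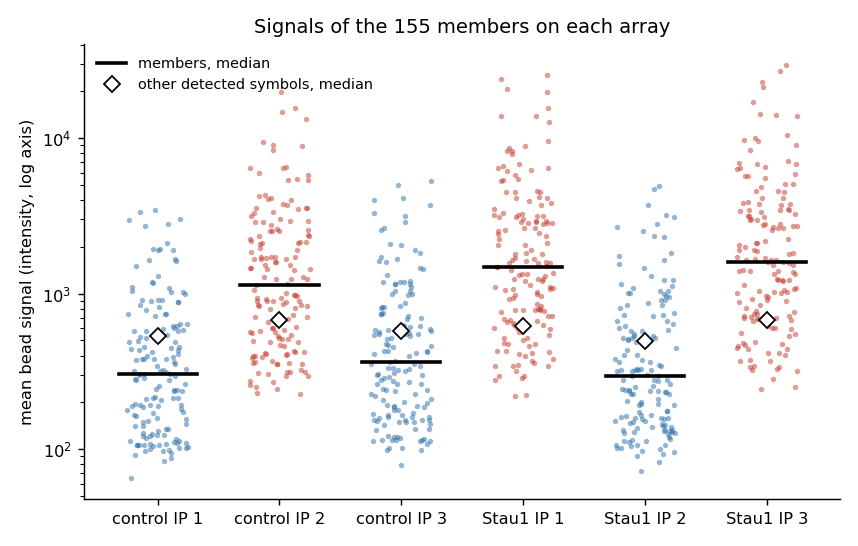
Mean bead signal (intensity, log axis) of each of the 155 members on the 6 arrays, with red points on the high arrays and blue points on the low arrays, a black bar at the members' median and an open diamond at the median of the 8316 other detected symbols. The members' medians were 1141, 1478 and 1605 on the high arrays and 306, 364 and 297 on the low arrays. The diamonds lay at 672, 623 and 676 on the high arrays and at 532, 571 and 493 on the low arrays.

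**Figure D2:**
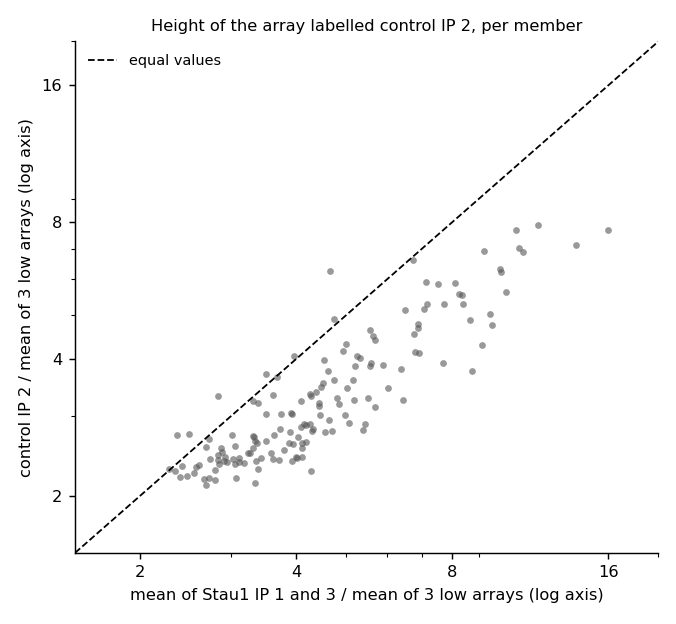
For each member, the signal on the array labelled control IP 2 (vertical) and the mean of Stau1 IP 1 and Stau1 IP 3 (horizontal), each divided by the mean of the 3 low arrays, on log axes; the dashed line marks equal values. The cloud follows the line from below, since control IP 2 was lower than the mean of the other high arrays in all but 8 members.

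Most members were measured on the low arrays too. On all 3 of them 103 members were detected, 23 were detected on 1 or 2 and 29 on none, among them PRR11, MCM3APAS, NMNAT1, OPA3 and NDUFC2. NPTX1, also among these 29, read 578 on control IP 1, 586 on control IP 3 and 554 on Stau1 IP 2. A missing detection thus did not always mean a low signal. The gap between the lowest high and the highest low array was at least 6.34 times its standard error between beads (median 17.2), which covers the beads of one hybridisation and not the spread between precipitates. Just inside the rule stood LOC158301, CC2D1B and DNAJC30, with ratios of 2.01, 2.00 and 2.00. Just outside were SPRYD3, FLJ20718 and RYK, at just under 2.00, 1.99 and 1.99, so no break in the values separates members from the next transcripts. The deposited detection p also shapes the list: FUBP3, with signals of 253 to 1855 and a ratio of 2.19, was listed as detected on no array.

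RefSeq names were found for 146 members, 30 of them under another symbol than the array's, and the chromosome matched in all 141 for which the array table gave one. Of the matched, 142 were protein-coding genes, 2 long non-coding RNAs and 2 pseudogenes. They were spread over the genome: chromosome 1 held 19 members (12.3% of them, against 9.52% of the other detected symbols), chromosome 3 held 12 and chromosome 12 held 10.

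The 15 members with the largest ratio came from unrelated processes. At the top stood LOC158318, a predicted locus on chromosome 9, with signals of 189, 1411 and 187 in control IP 1 to 3 and of 2878, 175 and 2990 in Stau1 IP 1 to 3, in that order, and a ratio of 7.47. PLCXD1, a phospholipase C-like protein from the part of the sex chromosomes that pairs, followed with 261, 2092 and 318 on control IP and 2840, 329 and 2732 on Stau1 IP. TMEM118 (RNFT2), a membrane protein with a RING finger, read 372, 3363 and 557 and then 4193, 380 and 5087. In each of these 3 control IP 2 was the lowest of the high arrays. NICN1, a protein found with tubulin polyglutamylase, had 422, 3734 and 685 on control IP and 6244, 521 and 5677 on Stau1 IP. DSCR6 (RIPPLY3), a repressor of T-box factors, had 208, 1249 and 220 and then 1200, 138 and 1343. For DSCR6 the lowest high array was Stau1 IP 1. The other leading members were MRPS16, STAG3L2, C10orf104, MMACHC, LOC374395, RAB2B, CRLS1, MGC42630, NUTF2 and C13orf1 (SPRYD7), with ratios of 4.56 to 5.91.

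**Figure D3:**
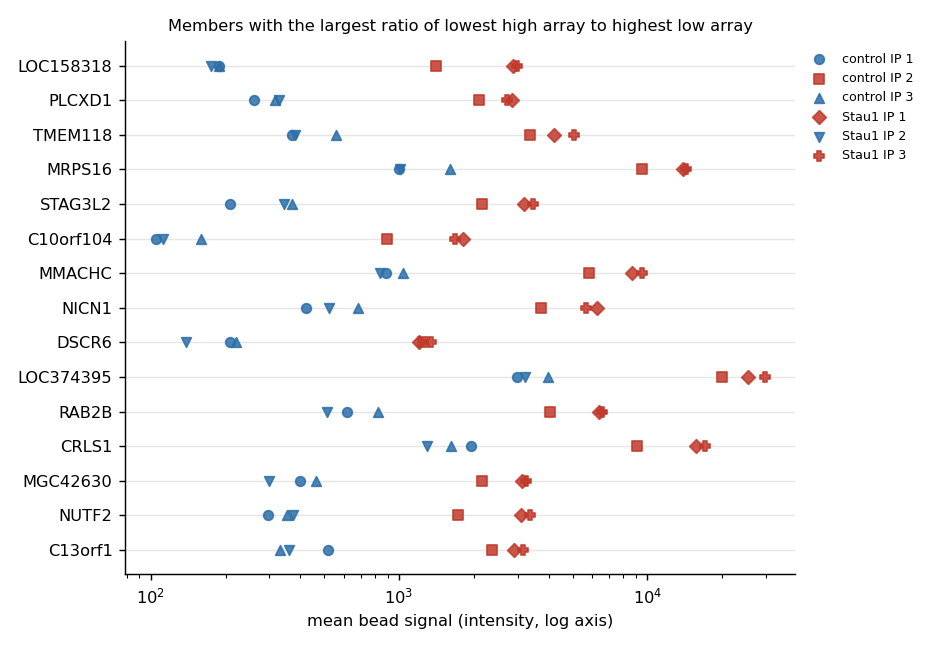
Mean bead signal (intensity, log axis) on the 6 arrays for the 15 members with the largest ratio of lowest high array to highest low array; red markers are the high arrays and blue markers the low arrays, 1 marker shape per array. In every row the red and the blue markers stand apart, from a ratio of 7.47 for LOC158318 to 4.56 for C13orf1.

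Transcripts classed by hand as non-coding or repeated loci were 3 of these 15 (LOC158318, STAG3L2 and MGC42630). They are uncertain, because a probe in 1 copy of a repeated locus can also read its relatives. Whether each locus is repeated was not tested. STAG3L2, a copy derived from the cohesin gene STAG3, read 209, 2159 and 369 on control IP and 3172, 344 and 3447 on Stau1 IP. Its relative STAG3L1 read 110, 323 and 129 and then 585, 117 and 514, which is a ratio of 2.49, but it was detected on only 2 arrays and so is no member. STAG3 had a ratio of 1.01. LOC158318 and MGC42630, both on chromosome 9, LOC652685 and LOC200030 (NBPF11) belong to the same class. Long non-coding RNAs among the members were MCM3APAS (MCM3AP-AS1), an RNA antisense to MCM3AP, at 141, 598 and 133 and then 675, 112 and 758.5, and C17orf69 (LINC02210), with a ratio of 3.70.

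Cell division genes were 8 of the members. C10orf104 is the array's name for ANAPC16, a subunit of the anaphase-promoting complex, the ubiquitin ligase that ends mitosis; it read 105, 896 and 160 on control IP and 1807, 113 and 1682 on Stau1 IP. CHFR, a ubiquitin ligase of the early mitotic checkpoint, read 823, 4100 and 1183 and then 6646, 964 and 6811. PRR11, a proline-rich protein of the late cell cycle, read 125.7, 684 and 153 and then 919, 151 and 1049. All of these were several times higher on each high array than on any low array. SKA1, which couples kinetochores to microtubules, read 412, 1240 and 471 and then 1660, 486 and 1654, a ratio of 2.55. Its partner in the same complex, SKA2, was lower on each high array than on any low array, at 1127, 775 and 825 and then 421, 893 and 420, a ratio of 0.37. The checkpoint and SKA list thus had 4 members (CHFR, PRR11, SKA1 and STAG3L2) of 9 measured and 8 detected genes, where 155 of 8471 detected symbols were members. The median ratio was 1.78 over its 8 detected genes, members included, and 0.78 over the 4 that were not members, beside 0.898 over all detected symbols and 0.892 over those that were not members. The members PRR11 and STAG3L2 are not subunits of a checkpoint or of the SKA complex. None of 6 mitosis genes (CCNB1, AURKA, PLK1, CDC20, BUB1 and CCNA2) was a member, and their ratios ran from 0.54 for PLK1 to 0.93 for AURKA. GINS4, of the complex that unwinds DNA at replication forks, entered at 2.03; of its partners GINS2 stood at 0.56 and GINS3 at 0.80.

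Mitochondrial proteins accounted for 13 members, with a median ratio of 2.94. MRPS16, of the small mitochondrial ribosomal subunit, had 997, 9489 and 1605 on control IP and 13858, 1007 and 14299 on Stau1 IP. CRLS1, the synthase that makes cardiolipin, had 1949, 9096 and 1619 and then 15735, 1293 and 17138. Both ranked among the 15 largest ratios. SLC25A15, the carrier that brings ornithine into the matrix, followed at 4.12. Of the cardiolipin and membrane list 3 of 9 measured genes were members, CRLS1, OPA3 (391, 583 and 599 on the high arrays and 108 to 173 on the low ones) and the phosphatase PGAM5; TAZ, the transacylase that remodels cardiolipin, stood at 0.82. The median ratio of this list was 1.75 over its 6 detected genes and 1.08 over the 3 that were not members. In the array's own annotation 10.6% of annotated members and 10.5% of the other detected symbols carried the term mitochondrion, so their share was that of the background.

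Enzymes and transporters of the rest of the cell were the largest class with a role, at 24 members. MMACHC, which removes the upper ligand of cobalamin after uptake, read 882, 5816 and 1039 on control IP and 8669, 841 and 9558 on Stau1 IP, the largest ratio of the class at 5.60. Of 8 measured genes for cobalamin handling MMACHC alone was a member, and the others had ratios of 0.65 to 1.30. Among those others, MMAA and MUT were listed as detected on no array. PAICS, which carries out a pair of steps of purine synthesis, read 3433, 15595 and 3301 on control IP and 19732, 2329 and 22957 on Stau1 IP, a ratio of 4.54. The other purine enzymes measured were ADSL, ATIC, GART, PFAS and PPAT, with ratios of 0.87, 0.85, 1.16, 1.82 and 1.17. PFAS came nearest to PAICS, with 955, 1796 and 986 and then 1816, 678 and 2306. GNE, the enzyme that starts sialic acid synthesis, read 528, 2522 and 581 and then 3523, 322 and 3848. GNPNAT1, an acetyltransferase on the way to UDP-N-acetylglucosamine, read 135, 574 and 208 and then 782, 157 and 889. The remaining 8 genes of their list lay at 0.44 to 1.31, with a median of 0.846, including UAP1 and PGM3, which act after GNPNAT1 in the same route. FAM20B, the xylose kinase of proteoglycan linkers, had a ratio of 3.97 and NMNAT1, the nuclear enzyme of NAD synthesis, one of 2.51. NAMPT, NMNAT2 and NMNAT3 stood at 0.91, 1.10 and 1.11. Other members of the class were BPNT1, QPCTL, AS3MT, TPMT, the ceramidase PHCA (ACER3), the peroxisomal protease LONP2 and the thiamine transporter SLC19A3, with ratios of 2.04 to 3.22.

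**Figure D4:**
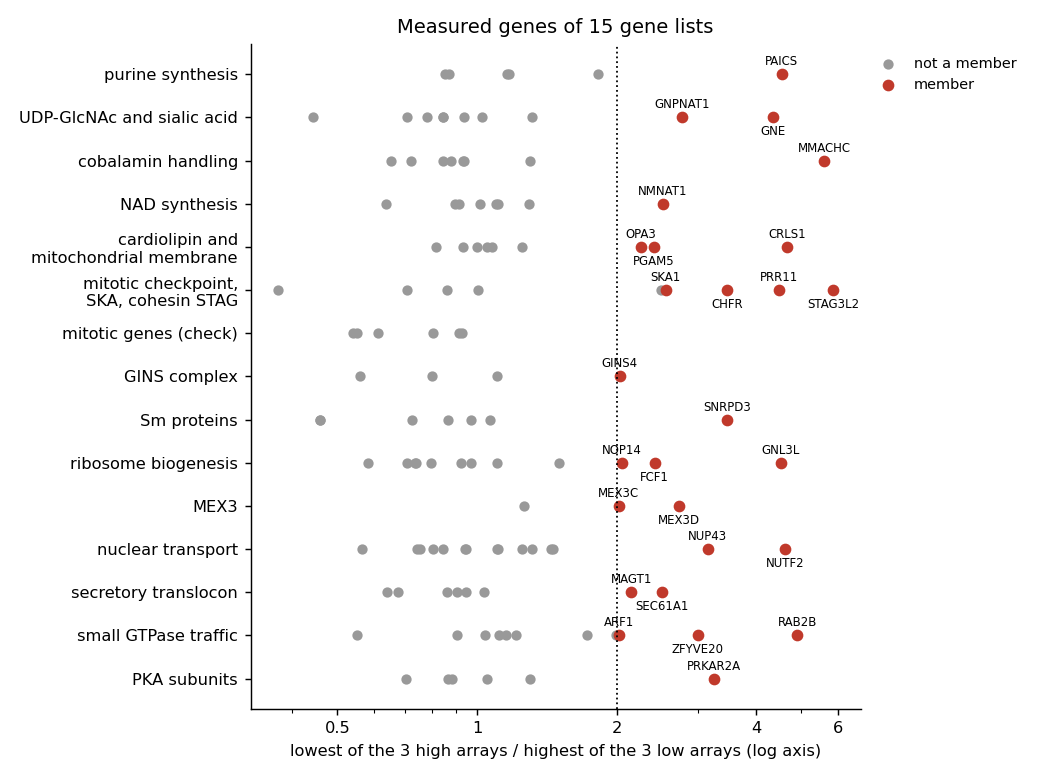
Ratio of the lowest high array to the highest low array (log axis) for every measured gene of 15 gene lists, with members in red and other genes in grey; the dotted line marks the 2-fold limit of the rule. In most lists 1 to 4 red points lie right of the line and most grey points lie left of it; the grey point past it is STAG3L1, which was not detected on all high arrays, and SNX11, at just under 2.00, lies next to it.

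Membrane traffic and nuclear transport gave 17 members. RAB2B, a small GTPase between the endoplasmic reticulum and the Golgi, read 617, 4040 and 824 on control IP and 6392, 510 and 6542 on Stau1 IP. Its close paralog RAB2A read 300, 419 and 277 and then 376, 273 and 364, a ratio of 1.21. NUTF2, which returns the GTPase Ran to the nucleus, read 297, 1721 and 355 and then 3104, 373 and 3370. NUP43, of the nuclear pore's Y complex, had a ratio of 3.14, while the other subunits of that complex measured in its list (NUP37, NUP85, NUP107, NUP133, NUP160 and SEH1L) lay between 0.75 and 1.46. SEC61A1, the channel through which secreted proteins enter the endoplasmic reticulum, read 3351, 13334 and 5312 and then 20626, 4959 and 21481. The channel's smaller subunits SEC61B and SEC61G stood at 0.68 and 0.64, and the paralog SEC61A2 at 0.90. Of the traffic list ARF1, RAB2B and the endosomal protein ZFYVE20 (RBSN) were members, 3 of 11 measured genes. CTSB, SORT1, VPS37D, KIAA0831 (ATG14) and MAGT1 also belonged to the class, with ratios of 2.15 to 3.82.

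RNA-related genes were 14 members with a median ratio of 2.34. GNL3L, a nucleolar GTPase, led them at 284, 2766 and 612 on control IP and 3196, 504 and 3449 on Stau1 IP. SNRPD3, a core Sm protein of the spliceosome, read 216, 985 and 285 and then 1584, 274 and 1709. The other Sm genes, SNRPB, SNRPD1, SNRPD2, SNRPE, SNRPF and SNRPG, had ratios of 0.46 to 1.07. SNRPD3 was thus the only member of its list, though SNRPE was listed as detected on no array. FCF1 and NOP14, both of the processome that cuts small-subunit ribosomal RNA, entered at 2.41 and 2.05, which made 3 of 12 measured genes of ribosome biogenesis with GNL3L; the 7 detected genes of that list that were not members had a median ratio of 0.798. MEX3C and MEX3D, RNA-binding ubiquitin ligases, were members at 2.02 and 2.72, whereas MEX3B stood at 1.26. ZFP36L2, which binds AU-rich elements and promotes decay, read 127, 294 and 114 and then 286, 130 and 444. Its paralogs ZFP36 and ZFP36L1 lay at 1.00 and 0.54. CWF19L1 read 2118, 8381 and 3692 and then 13885, 2548 and 13823. The translation factor DENR, the methyltransferase METT10D (METTL16) and the Elongator subunit TMEM103 (ELP6) had ratios of 2.25 to 2.64.

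The ubiquitin pathway held 9 members besides ANAPC16, CHFR and the MEX3 proteins. KLHDC3 and ZYG11B, substrate receptors of CUL2 ligases that read protein ends, had ratios of 2.18 and 2.91, and DCAF16, a receptor of CUL4 ligases, one of 3.28. Transcription and chromatin genes were 14, with DSCR6 first, followed by ATPBD1B (GPN2), which takes part in RNA polymerase II assembly, at 4.11. The forkhead factors FOXK1 and FOXD1 were members, 2 of 8 measured in their list, and of 10 measured Mediator genes MED22 alone. RXRA, the shared partner of nuclear receptors, read 497, 1432 and 595 and then 1684, 536 and 2120. Signalling and cell death genes were 11. PRKAR2A, a regulatory subunit of protein kinase A, read 97, 537 and 165 and then 795, 129 and 1005. It was the only member among 6 measured subunits, of which PRKACB and PRKAR2B were listed as detected on no array. PRKAR1A stood at 1.30. DFFA, the inhibitor of the DNase that fragments DNA in apoptosis, had a ratio of 2.83 and its partner DFFB one of 1.24. STK4, the kinase MST1 of the Hippo pathway, had 2.93 and CFLAR, an inhibitor of caspase-8 activation, 2.01. Another 10 members were cell surface and matrix genes, from LPP at 3.69 to CD99L2 at 2.05, among them the lipoprotein receptor relative LRP3 at 2.27, 3 were chaperones and 24 had no role assigned. The last group included C8orf55 (THEM6), which read 3009, 14657 and 5034 on control IP and 23977, 4678 and 27045 on Stau1 IP, and LOC374395 (TMEM179B), which read 2996, 19940 and 3976 on control IP and 25379, 3212 and 29722 on Stau1 IP.

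Annotation terms were set beside those of the other detected symbols as a description. The array annotation placed 28.8% of annotated members and 20.5% of the other detected symbols in the membrane as integral proteins. For the nucleus these shares were 32.7% and 39.5%, for zinc ion binding 18.6% and 15.1%, and for RNA binding 3.09% and 5.85%. Of 236 genes measured in 28 lists, 3 of them check lists, 35 were members, where 155 of all 25233 targets with a symbol were members. Apart from the check lists, TFIID, the checkpoint clamp, methionine salvage and prenyl processing held none. At the share over all symbols most lists this short would hold none. Some listed genes met the fold but not the detection limit. Among these MRI1, an isomerase of methionine salvage, read 1386, 8477 and 2005 on control IP and 12522, 1592 and 14080 on Stau1 IP, a ratio of 4.23, and was listed as detected on 1 array. ICMT, the methyltransferase of prenylated proteins, and RAD1, of the checkpoint clamp, had ratios of 2.72 and 2.68 and were listed as detected on 0 arrays. Because the lists were drawn up with the members' names known, these counts and those of single lists above describe the set and test nothing.

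The members' genes were then set beside the genes that start next to them, since neighbours transcribed outward from a shared stretch of DNA were not used by the rule. In RefSeq (GRCh38.p14) 37 members had a gene on the opposite strand whose start lay within 1000 bp upstream, in head-to-head order. Of these neighbours 20 were on the array and 14 were detected on the high arrays. None of the 14 was a member, where 1.96% of detected symbols met the fold. At that share so few neighbours would mostly hold no member, so the count is no result about them. Their ratios had a median of 0.887, against 0.892 for all other detected symbols, with 5 above 1. PRR11 (4.47) lay 560 bp from SKA2 (0.37), and C10orf104 (5.61) 56 bp from ASCC1 (0.69). QPCTL (2.71) lay 350 bp from SNRPD2 (0.72), and KLHDC3 (2.18) 266 bp from MEA1 (0.47). The neighbour with the highest ratio was C22orf13 (GUCD1), 512 bp from SNRPD3 (3.46); it read 3335, 7397 and 4120 on control IP and 11560, 4300 and 11765 on Stau1 IP, a ratio of 1.72.

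**Figure D5:**
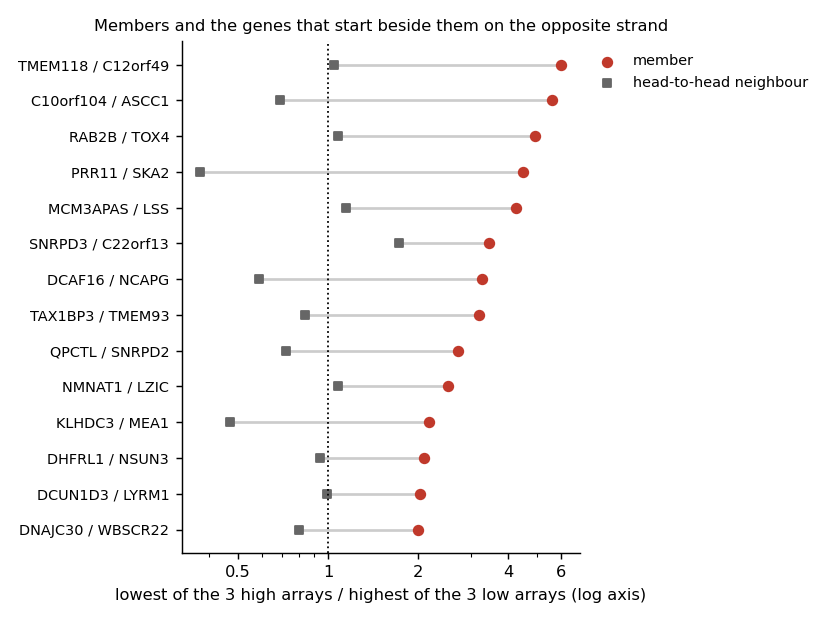
Ratio of the lowest high array to the highest low array (log axis) for 14 members (red circles) and for the gene that starts beside each on the opposite strand (grey squares), joined by a line; the dotted line marks equal signals. Every circle lies right of 2 by the rule that chose the members. The squares run from SKA2 at 0.37 to C22orf13 at 1.72.

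The stretches upstream of a few of these starts are shown, from pairs of a member and a neighbour that was no member. Other pairs fit this too, and these stretches were picked by hand and do not stand for the rest. Each is the 250 bases before the first base of the RefSeq gene in GRCh38.p14, 5′ to 3′ on the gene's own strand, with CCAAT and GGGCGG, on either strand, in capitals; no base is shared by a CCAAT and a GGGCGG. PRR11 lies on the plus strand (chr17:59155496-59155745) and SKA2 on the minus strand (chr17:59155187-59155436), QPCTL on the plus strand (chr19:45692416-45692665) and MCM3AP-AS1 on the plus strand (chr21:46228981-46229230).
PRR11: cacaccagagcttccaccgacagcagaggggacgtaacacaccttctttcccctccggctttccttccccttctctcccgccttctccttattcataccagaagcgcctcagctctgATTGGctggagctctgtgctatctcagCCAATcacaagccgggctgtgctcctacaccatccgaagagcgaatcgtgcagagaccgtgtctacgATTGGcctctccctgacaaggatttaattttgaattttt
SKA2: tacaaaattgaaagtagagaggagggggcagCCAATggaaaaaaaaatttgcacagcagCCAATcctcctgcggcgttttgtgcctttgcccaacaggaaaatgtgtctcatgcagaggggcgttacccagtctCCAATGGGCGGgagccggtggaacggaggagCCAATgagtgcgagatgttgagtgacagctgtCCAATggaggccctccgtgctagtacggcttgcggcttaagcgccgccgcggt
QPCTL: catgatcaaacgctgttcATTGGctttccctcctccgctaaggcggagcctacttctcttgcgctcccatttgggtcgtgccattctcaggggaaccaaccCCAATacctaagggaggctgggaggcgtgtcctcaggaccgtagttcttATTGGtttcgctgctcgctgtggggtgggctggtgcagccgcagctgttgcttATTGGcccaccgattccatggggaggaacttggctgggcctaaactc
MCM3AP-AS1: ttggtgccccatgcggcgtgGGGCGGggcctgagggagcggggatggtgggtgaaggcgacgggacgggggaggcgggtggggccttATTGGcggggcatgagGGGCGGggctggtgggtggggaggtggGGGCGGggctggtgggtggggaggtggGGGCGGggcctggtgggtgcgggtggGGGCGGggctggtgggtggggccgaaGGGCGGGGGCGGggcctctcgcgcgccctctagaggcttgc
CCAAT occurs 3 times before PRR11, 5 times before SKA2, 4 times before QPCTL and 1 time before MCM3AP-AS1. GGGCGG occurs 7 times before MCM3AP-AS1, 1 time before SKA2 and 0 times before PRR11 and QPCTL. Whether these letters bear on the signals in the precipitates was not tested.

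Over the 119 members with a window in the RefSeq table the same letters were counted. CCAAT was found in 35.3% of the members' windows, in 37.2% of those of 6374 other detected symbols and in 33.0% of all 27305. GGGCGG was found in 73.1%, 70.3% and 42.3%, and TATAAA in 1.68%, 4.94% and 11.1%. Median GC content was 66% for members, 65.2% for other detected symbols and 58% for all. A match to these letters is no evidence of a bound factor.

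By the labels, Stau1 IP against control IP, the members were higher on average but no call was made. After background correction, quantile normalization and log2, the median difference of the members was 0.90 (range -0.01 to 1.93), with 154 of 155 above 0 and 107 larger than their own standard error; over all targets the median was 0.00057. limma called 10 of 37879 targets higher (0.0264%) and 13 lower (0.0343%) at a fold above 2.5 and an unadjusted p under 0.05, and 0 of the 155 members. No target passed a Benjamini-Hochberg adjusted p of 0.05, while 3611 targets and 0 members had an unadjusted p under 0.05. The smallest adjusted p of a member was 0.568 in limma. As the members were chosen on these 6 arrays, neither the median nor the count bears on whether they co-purify with Stau1. With 3 arrays against 3, an exact two-sided permutation test of a single transcript could not go below 0.1.

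The spread that the labels leave within a group can be read from single members. LOC374395 differed by 1.19 with a standard error of 1.09, CRLS1 by 1.32 with 1.17, PAICS by 0.95 with 1.06 and SEC61A1 by 1.16 with 0.75, all on the log2 scale from limma. In each of them 1 of 3 arrays in either group read like the other group. MEX3C differed by -0.01 and was the only member below 0. The count of members called was 15 without control IP 2, 113 without Stau1 IP 2, and 0 without any other single array. Of all 37879 targets, 69 were called higher and 24 lower without control IP 2. Without Stau1 IP 2 these counts were 268 and 38. Leaving out either array brings the labels nearer to the rule's grouping, so these member counts too are tied to how the members were chosen. With the arrays numbered 2 exchanged between the groups, 140 members were called, and 327 of all targets were called higher (0.863%) and 32 lower; that grouping is the one the rule used, so the count repeats the choice of members.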

How the data were processed

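Control and Stau1 immunoprecipitates of nocodazole-arrested HEK293T cells were measured on 3 bead arrays each, grouped as in the labels. The authors deposited, per the file headers, 1 table of BeadStudio output with 37879 targets: mean bead signal as intensity, neither background-subtracted nor normalized, the standard error between its beads, how many beads were read, and a detection p-value against negative controls. No per-sample column was left unused (0). The methods name background correction, variance stabilization and robust spline normalization before a t-test. Depth does not apply to arrays; their number (3 a group) and the beads per target (median 41) limit the precision.

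The rule was applied to raw signals. For the labelled contrast, signals were corrected by normexp (offset 16), quantile normalized, set on the log2 scale and tested with limma 3.58.1 in R 4.3.3; a call was a fold above 2.5 with an unadjusted p under 0.05, with Benjamini-Hochberg values beside it. The background mean and SD were read from the 200 targets nearest a detection p-value of 0.5 and of 1 SD above it. This replaced limma's own estimate after its result had been seen: the deposited detection p-value does not follow the signal for 142 to 192 targets per array that exceed 500, and limma's SD was 460 to 608 in place of 11.7 to 13.5. On simulated data 200 targets of 37879, all detected on every array, were changed 4-fold. The fit recovered 98% with 0 false calls, at a median log2 of 1.95 for higher targets. The simulated spread between arrays was far smaller than the members' median SD within the labelled groups, which was 1.18 on the log2 scale. The 98% is thus no estimate of recovery for the members.

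Members, gene lists and tests were chosen with earlier results of these data known, and roles were assigned by hand after the members were known. Genes named are the 15 largest ratios, the 10 highest mean signals on the high arrays, all members of a gene list, 3 members just inside and 3 transcripts just outside the rule; further members are named as examples of a class or after their values were seen. Names, neighbours and upstream windows (the first listed start of a gene) came from RefSeq (GRCh38.p14), Python 3.11.15 with pandas 2.3.3. Probe sequences, transcript features and proteins were not analysed here. Alternatives covered the background, normalization, filter, test, replicate block, array placement, single arrays, and the fold, scale and detection limit of the rule.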

Additional observations from a re-analysis of the deposited data

How the results depend on the processing

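The rule gave 155 members. A fold of 1.5, 2.5 or 4 gave 491, 84 or 24; signals less the negative-control median gave 279, which included all 155. After background correction and quantile normalization there were 125, of which 112 were members, and after scaling to 1 median 106, all members; a detection p under 0.05 gave 157 and no detection limit 167. Targets called by the labels, 23 with the settings of the report, were 1 without background correction, 1 with the rebuilt variance stabilization, 41 with a trend, 0 by adjusted p, 10 with limma's own background estimate (added after the data were seen) and 359 with the arrays numbered 2 exchanged. Leaving out 1 array gave 10 to 306. Members called, 0 in the report, were 2 among targets detected on at least 3 arrays, 8 with a trend and 140 after the exchange; leaving out 1 array gave 0 to 113, with 15 without control IP 2 and 113 without Stau1 IP 2. The median difference of the members stayed above 0 throughout, from 0.54 (limma's own estimate) to 2.03 (exchange), and from 0.58 to 1.63 without 1 array. The cause of these shifts was not tested. The exchange restores the grouping of the rule, so its values for the members repeat how they were chosen. Leaving out an array numbered 2 brings the labels nearer to that grouping, so those values are tied to the choice as well.

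With the replicate block 19 targets and 0 members were called. Arrays of 1 number deviated from their labelled group means in opposite directions (correlations -0.44, -0.76 and -0.43 over 9250 targets). Where the arrays numbered 2 read like the other group, such correlations are negative with or without pairing. They thus cannot decide whether the numbers pair the arrays. Of 55 named transcripts, MEX3C, at -0.01, was above 0 without background correction (0.086), with variance stabilization (0.095), with limma's own estimate (0.079) and after the exchange (1.66). Leaving out 1 array gave MEX3C -0.49 to 0.91, with 0.31 without control IP 2 and 0.91 without Stau1 IP 2. It gave DSCR6 -0.0041 (without Stau1 IP 3) to 1.85. For PHCA it gave -0.41 to 1.10, with -0.34 without control IP 1, -0.013 without control IP 3, -0.41 without Stau1 IP 1 and -0.35 without Stau1 IP 3. For RYK it gave -0.11 to 1.02, with -0.08 without Stau1 IP 1 and -0.11 without Stau1 IP 3. After the exchange 54 gained a call with their sign unchanged, without Stau1 IP 2 46 and without control IP 2 4. None of the other alternatives compared for single transcripts changed a call among them. The methods' t-test, the fit with a trend and the adjusted p were not compared for single transcripts.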
